A study of Mus musculus with 12 samples.

Results

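Hepatocytes make most of the protein of blood plasma, and the transcripts that carry this work are among the most abundant of the liver. Here, 45 such genes were followed through RNA-seq libraries of the immune cell fraction of mouse liver, a fraction parted from hepatocytes during its preparation. The genes were taken by name, as hepatocyte plasma protein and metabolic genes, by a rule that uses no measured value. The list was, however, chosen with earlier results of these data known. All 45 were found among the 40840 genes of the files. By role they were 10 carriers and binding proteins, 5 apolipoproteins, 10 genes of coagulation and related plasma proteins, 10 protease inhibitors and their relatives, 4 acute phase and complement genes and 6 metabolic enzymes. They sit on many chromosomes, with several sets of neighbours, among them Fga, Fgb and Fgg on chromosome 3, Apoa1 and Apoc3 on chromosome 9, Serpina1a, Serpina1b and Serpina1c on chromosome 12, Itih1, Itih3 and Itih4 on chromosome 14, Ahsg, Fetub, Hrg and Kng1 on chromosome 16, and Saa1 and Saa2 on chromosome 7.

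The libraries came from male mice of 4 groups with 3 libraries each. WT-NCD were wild-type C57BL/6 mice that stayed on normal chow diet (NCD), and WT-HFD were wild-type mice given a high fat diet (HFD). Casp11-/- NCD and Casp11-/- HFD were caspase-11 knockout mice, strain B6.129S4(D2)-Casp4tm1Yuan/J, on the same diets. The mice were 8 to 10 weeks old at the start, the diets ran for 12 weeks, and the knockout is carried by every cell of the animal. The livers were perfused, digested and filtered, red cells were lysed, and the immune cells were parted from hepatocytes on Percoll without a sort, so the labelled cell type, hepatic macrophages, was enriched by density only.

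As background, hepatocytes secrete albumin, transferrin, lipoproteins, clotting factors and protease inhibitors into the blood. Transcription of these genes in the liver is driven by factors such as HNF1, HNF4A and the C/EBP family. The acute phase genes of the liver, among them serum amyloid A, haptoglobin and fibrinogen, are known to rise with interleukin-6 and other inflammatory signals. Macrophages and B cells are not known as sources of albumin or fibrinogen. This does not extend to every gene followed here. Whether immune cells of the fraction gave part of the signal of others, such as C3, Cfb, Hp and Ass1, was not tested.

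Values are the TPM of the deposited files, a transcript level scaled by transcript length, so that levels of different genes can be set side by side, and they are listed for replicates 1, 2 and 3 of each group. Every file had a lowest value of 1.01 TPM, called the floor here, and a gene at the floor is listed at that lowest value. WT-NCD replicate 3 stood apart from the rest. It had 39677 genes above the floor where the other 11 libraries had 12940 to 18775, its highest value was 1635 TPM where theirs were 153305 to 430602 TPM, and its r with them over log2(TPM + 1) was -0.27 to -0.07 where theirs with each other were 0.85 to 0.99. Each comparison below was run on the full set of 12 and again with this library left out. Casp4, the gene for caspase-11, was at 12.1, 15.6 and 8.94 (WT-NCD), 7.09, 5.60 and 11.4 (WT-HFD), 4.93, 2.56 and 15.2 (Casp11-/- NCD) and 2.78, 8.68 and 4.73 (Casp11-/- HFD) TPM. The Casp11-/- and WT libraries overlapped in this value, which sums over the whole gene and does not show which bases the allele lacks, so it did not check the genotype. Protein-coding genes held 15.7% to 42.4% of the TPM of the 11 libraries, and the summed level of the hepatocyte genes is given against protein-coding TPM for this reason. In bulk RNA, fewer hepatocytes and less RNA per hepatocyte cannot be told apart.

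The 45 genes together took up a large part of the protein-coding signal, and the amount differed several-fold between libraries of the same group. Their summed TPM made up 12.99, 8.61 and 0.247% (WT-NCD), 16.4, 14.3 and 7.56% (WT-HFD), 3.71, 18.2 and 3.30% (Casp11-/- NCD) and 15.0, 16.2 and 15.9% (Casp11-/- HFD) of protein-coding TPM. The Casp11-/- HFD libraries lay close together, and the Casp11-/- NCD libraries held both the lowest values and the highest value of the 11 libraries, with a 5.51-fold range over the 11. Group means were 7.28% ± 6.47 in WT-NCD, 12.7% ± 4.62 in WT-HFD, 8.39% ± 8.47 in Casp11-/- NCD and 15.7% ± 0.667 in Casp11-/- HFD (SD, n = 3 each). Without replicate 3, the WT-NCD mean was 10.8% ± 3.10 (SD, n = 2). Within each genotype the diets overlapped, and within each diet the genotypes overlapped. The 3 Casp11-/- HFD libraries lay above the 3 WT-NCD libraries, a pair of groups that differ in both diet and genotype.

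**Figure D1:**
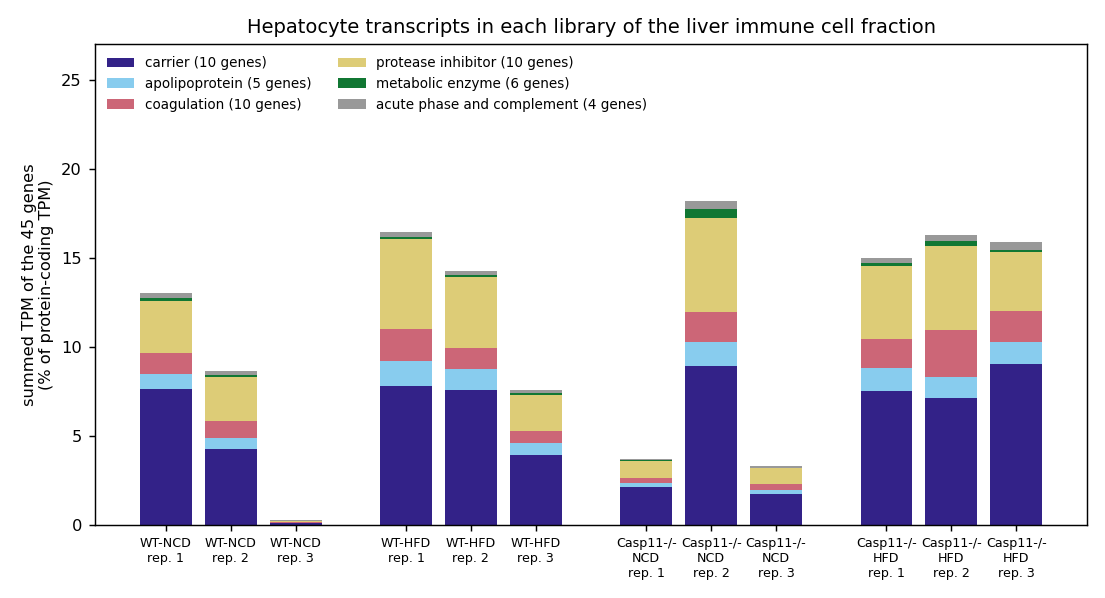
Stacked bars give the summed TPM of the 45 genes in each of the 12 libraries as a percent of protein-coding TPM, split by role. The bars run from 3.30% to 18.2% outside WT-NCD replicate 3, which is at 0.247%, and carriers make up the largest block in each of the 11 libraries.

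In TPM the sum was 44959.9, 33214 and 359 (WT-NCD), 41001, 22792 and 19411 (WT-HFD), 13881, 41402 and 14210.3 (Casp11-/- NCD) and 29321, 38794 and 37162 (Casp11-/- HFD) TPM. Libraries of 1 group differed as much as groups did on this scale too. Of the 43 genes above the floor in all 11 libraries, 31 were lowest in Casp11-/- NCD replicate 1, 9 in Casp11-/- NCD replicate 3 and 3 in WT-HFD replicate 2. The highest library was spread over more of the series, with 14 of the 45 genes highest in Casp11-/- HFD replicate 2, 10 in WT-HFD replicate 1, 8 in Casp11-/- HFD replicate 3, 7 in Casp11-/- NCD replicate 2 and 6 in WT-NCD replicate 1.

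Albumin (Alb) is the main carrier of plasma and keeps its oncotic pressure. Alb was at 18318, 10749.7 and 6.46 (WT-NCD), 11845, 6970.4 and 5947 (WT-HFD), 4445, 10572 and 4708 (Casp11-/- NCD) and 8939.9, 9891 and 12704 (Casp11-/- HFD) TPM. It was the highest protein-coding gene in 9 of the 11 libraries and the third and the fourth in Casp11-/- NCD replicates 1 and 3. The lowest of the 11 libraries, Casp11-/- NCD replicate 1, was 4.12-fold below the highest, WT-NCD replicate 1. On NCD, the 3 Casp11-/- libraries lay below WT-NCD replicates 1 and 2 and above WT-NCD replicate 3, and on HFD the genotypes overlapped. In WT-NCD replicate 3, Alb ranked 7441 among protein-coding genes. The bases before the start of Alb are shown here because the gene leads the set, from RefSeq on GRCm38.p6, 5′ to 3′ on the strand of the gene and ending at the base before the start. Capitals mark the letters GTTAAT, the core of sites bound by HNF1.
Alb, chr5:90460720-90460869, plus strand: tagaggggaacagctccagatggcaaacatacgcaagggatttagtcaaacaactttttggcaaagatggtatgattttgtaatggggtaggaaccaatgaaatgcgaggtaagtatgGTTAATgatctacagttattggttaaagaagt

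Of the other carriers, transferrin (Trf), which carries iron, was at 4282, 2782 and 5.71 (WT-NCD), 3352, 2714 and 1981 (WT-HFD), 2065, 5678 and 910.5 (Casp11-/- NCD) and 2315, 2733 and 4864 (Casp11-/- HFD) TPM. Vitamin D binding protein (Gc) was at 1036, 687 and 7.34 (WT-NCD), 1580.3, 848 and 679 (WT-HFD), 399, 1097 and 463 (Casp11-/- NCD) and 949.5, 965 and 1056 (Casp11-/- HFD) TPM. Trf was highest in Casp11-/- NCD replicate 2 and lowest in Casp11-/- NCD replicate 3, so the 3 libraries of that group spanned the whole range, and Gc was highest in WT-HFD replicate 1. The haptoglobin gene Hp, whose product binds free haemoglobin, reached 603 TPM in Casp11-/- HFD replicate 2 against 95.3 to 346 TPM in the other 10 libraries. The rest of the carriers, namely Ttr, Rbp4, the retinol carrier, Hpx, which binds haem, Ambp, Azgp1 and Orm1, ranged over the 11 libraries by 2.48-fold for Ttr, the transporter of thyroxine, up to 5.19-fold for Orm1, an acute phase glycoprotein.

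Apolipoproteins coat the lipid particles of plasma, with Apob as the frame of very low density lipoprotein and Apoa1 and Apoa2 as the main proteins of high density lipoprotein. Apoa1 was at 1014, 942 and 13.5 (WT-NCD), 961, 387 and 531 (WT-HFD), 276, 1277 and 389 (Casp11-/- NCD) and 544, 961 and 841 (Casp11-/- HFD) TPM. Apob was at 709, 495 and 1.01 (WT-NCD), 1051, 634 and 409 (WT-HFD), 195, 662 and 222 (Casp11-/- NCD) and 755, 697 and 708 (Casp11-/- HFD) TPM. Apoa2 was at 531, 378 and 14.2 (WT-NCD), 589, 302 and 351 (WT-HFD), 156, 449 and 255 (Casp11-/- NCD) and 497, 467 and 616 (Casp11-/- HFD) TPM. In Casp11-/- mice each HFD library was above each NCD library for 4 of 45 members, a separation shown by 2.26% of all genes. These were Apob, Apoa2, Apoh, a phospholipid-binding plasma protein, and Hrg, histidine-rich glycoprotein. In WT mice, the HFD and NCD libraries of Apoa1, Apob and Apoa2 overlapped even without WT-NCD replicate 3.

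Fibrinogen, the substrate of the clot, is built from the chains encoded by Fga, Fgb and Fgg. Fgb was at 767, 887 and 7.80 (WT-NCD), 1018, 390.4 and 343 (WT-HFD), 186, 669.7 and 295 (Casp11-/- NCD) and 578, 1778 and 816 (Casp11-/- HFD) TPM. Fgg was at 518, 561 and 6.30 (WT-NCD), 909, 371 and 299 (WT-HFD), 163, 601 and 226 (Casp11-/- NCD) and 479.6, 1206 and 522 (Casp11-/- HFD) TPM. Fga was at 497, 536 and 3.95 (WT-NCD), 634, 246 and 203 (WT-HFD), 131, 543 and 195 (Casp11-/- NCD) and 402, 1039 and 429 (Casp11-/- HFD) TPM. The 3 chains kept the same order of libraries at both ends, lowest in Casp11-/- NCD replicate 1 and highest in Casp11-/- HFD replicate 2, which was 9.58-fold, 7.40-fold and 7.93-fold higher for Fgb, Fgg and Fga. The other coagulation and related genes, among them prothrombin (F2), antithrombin (Serpinc1), plasminogen (Plg), kininogen (Kng1) and the adhesion protein vitronectin (Vtn), ranged by 3.51-fold to 5.07-fold, except Fgl1. Fgl1, a secreted relative of fibrinogen that is not part of the clot, was singled out after its values were seen, and was at 17.5, 25.3 and 10.1 (WT-NCD), 9.94, 3.95 and 5.08 (WT-HFD), 2.90, 13.2 and 4.80 (Casp11-/- NCD) and 10.6, 20.0 and 59.6 (Casp11-/- HFD) TPM. Its highest library was Casp11-/- HFD replicate 3, a different library from that of the fibrinogen chains. Within WT mice each HFD library was below each NCD library for Fgl1, the 1 of 45 members for which this held with all 12 libraries, against 13.7% of all genes. Without WT-NCD replicate 3 it held for 11 of 45 members, against 40.3% of all genes, namely Fgl1, Hp, Orm1, Ahsg, Fetub, Itih4, C3, Ass1, Cps1, Pck1 and Tat. Within Casp11-/- mice the diets overlapped for Fgl1. On HFD, each Casp11-/- library was above each WT library for Fgl1, Hpx, Itih4 and Vtn, 4 of 45 members, where 0.908% of all genes did so. The bases before Fga and Fgb are shown as those of the chains that hold GTTAAT, read on the opposite strand as ATTAAC, in capitals. Fgg moved with them and had no such match on either strand in the 250 bases before its start. A match describes letters only, and its part in the levels was not tested. 
Fga, chr3:83026053-83026152, plus strand: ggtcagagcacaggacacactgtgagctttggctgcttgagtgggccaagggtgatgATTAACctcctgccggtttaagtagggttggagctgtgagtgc
Fgb, chr3:83049864-83049963, minus strand: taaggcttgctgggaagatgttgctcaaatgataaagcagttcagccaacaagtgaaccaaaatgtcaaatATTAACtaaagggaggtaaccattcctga

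Protease inhibitors of plasma guard tissue against enzymes such as neutrophil elastase. Serpina3k was at 3761, 3793 and 8.06 (WT-NCD), 4599, 1807 and 1539 (WT-HFD), 735, 4489 and 957 (Casp11-/- NCD) and 2279, 4366 and 1732 (Casp11-/- HFD) TPM. Serpina1c, an alpha-1-antitrypsin gene, was at 1629, 1433 and 9.34 (WT-NCD), 2671, 1518 and 1249 (WT-HFD), 1003, 2229 and 867 (Casp11-/- NCD) and 2006, 2028 and 1149.7 (Casp11-/- HFD) TPM. Serpina1b, its close copy, was at 1381, 1308 and 9.34 (WT-NCD), 1799, 999 and 846 (WT-HFD), 604, 1450.2 and 631 (Casp11-/- NCD) and 1190.2, 1295 and 1362 (Casp11-/- HFD) TPM. By mean TPM over the 11 libraries, though not in each library, these were the next most abundant members after Alb and Trf. Serpina1a to c varied less than most members, by 2.98-fold to 3.10-fold over the 11 libraries. Serpina1a, Serpina1b and Serpina1c are near-identical copies, as are Saa1 and Saa2, and how the authors' counting shared reads among them is not given in the sources used here, so the level of each copy is uncertain. The likeness extends to the bases before their starts, shown here for that reason, where 92 to 96 of 100 bases could be lined up in order between any pair and GTTAAT, in capitals, stood 15 to 21 bases before the start. 
Serpina1a, chr12:103863620-103863719, minus strand: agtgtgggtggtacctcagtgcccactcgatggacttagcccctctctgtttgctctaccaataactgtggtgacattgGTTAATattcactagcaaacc
Serpina1b, chr12:103738190-103738289, minus strand: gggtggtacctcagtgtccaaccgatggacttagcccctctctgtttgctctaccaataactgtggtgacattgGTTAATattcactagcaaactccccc
Serpina1c, chr12:103904951-103905050, minus strand: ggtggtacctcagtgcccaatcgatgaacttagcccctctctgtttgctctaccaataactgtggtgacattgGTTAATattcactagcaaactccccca
Ahsg and Fetub, the fetuins, and Itih1 to Itih4, the heavy chains of inter-alpha-inhibitor and their relative, ranged by 4.26-fold to 5.27-fold.

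Among acute phase and complement genes, C3, the central complement component, was at 791, 606 and 2.55 (WT-NCD), 455, 277 and 330.0 (WT-HFD), 292, 800.1 and 357 (Casp11-/- NCD) and 412, 570.4 and 955 (Casp11-/- HFD) TPM. Cfb, complement factor B, was at 161, 116 and 4.81 (WT-NCD), 158, 72.4 and 81.4 (WT-HFD), 39.5, 166 and 44.8 (Casp11-/- NCD) and 105, 173 and 168 (Casp11-/- HFD) TPM. Saa2, serum amyloid A2, was at 1.01, 2.11 and 16.1 (WT-NCD), 1.01, 1.75 and 1.01 (WT-HFD), 1.01, 1.01 and 1.01 (Casp11-/- NCD) and 1.19, 36.6 and 1.01 (Casp11-/- HFD) TPM. C3 and Cfb ranged over the 11 libraries by 3.44-fold and 4.37-fold. Saa2 and its copy Saa1 were near the floor in most libraries. Saa2 was above the floor in 4 and Saa1 in 5 of the 11 libraries, and outside WT-NCD replicate 3 only Casp11-/- HFD replicate 2 passed 3 TPM, with 36.6 TPM for Saa2 and 14.8 TPM for Saa1. The same library held the highest Fga, Fgb, Fgg and Hp, and its neutrophil list summed to 4115 TPM against 108 to 966 TPM in the other 10 libraries. The part of either in the other was not tested. The bases before the starts of Saa1 and Saa2 are shown because both genes stood out in the same single library. For Saa1 the start is that of the promoter entry used, and the bases shown lie inside the gene as listed, which spans 46740497 to 46743181. They could be lined up in order over 185 of 190 bases, and capitals mark a match to TTNNGCAAT, a pattern bound by C/EBP factors, read on the opposite strand.
Saa1, chr7:46742981-46743170, minus strand: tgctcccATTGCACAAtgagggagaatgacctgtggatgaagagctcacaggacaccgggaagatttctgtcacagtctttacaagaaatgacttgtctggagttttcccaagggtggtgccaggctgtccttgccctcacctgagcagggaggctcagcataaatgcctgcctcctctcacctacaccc
Saa2, chr7:46751643-46751832, plus strand: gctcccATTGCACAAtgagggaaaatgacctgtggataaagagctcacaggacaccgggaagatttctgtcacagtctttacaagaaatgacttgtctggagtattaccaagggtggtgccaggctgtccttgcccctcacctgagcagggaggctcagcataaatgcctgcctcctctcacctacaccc

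Over the RefSeq promoter table, 34 of the 45 members had an entry. In the 250 bases before the start, on either strand, GTTAAT occurred in 10 of the 34 (29.4%), namely Alb, Gc, Fga, Fgb, Vtn, Itih1, Serpina1a, Serpina1b, Serpina1c and Pck1, and in 7.49% of all 27025 genes of the table. TTNNGCAAT occurred in 5 of the 34 (14.7%), namely Saa1, Saa2, Apob, Hrg and Ahsg, and in 2.24% of all genes. The 2 patterns share no member. The near-identical copies count separately here, and a match describes the letters only.

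The metabolic enzymes summed to less than the carriers, inhibitors and clotting genes did, and they ranged widely, from 4.38-fold for Tdo2 to 49.0-fold for Pck1 over the 11 libraries. Ass1, argininosuccinate synthase of the urea cycle, was at 249.9, 175 and 8.16 (WT-NCD), 90.9, 68.5 and 126 (WT-HFD), 146, 451 and 78.0 (Casp11-/- NCD) and 131, 239 and 92.3 (Casp11-/- HFD) TPM. Pck1, which opens gluconeogenesis, was at 61.3, 60.9 and 5.05 (WT-NCD), 41.9, 24.6 and 42.4 (WT-HFD), 26.5, 339.7 and 6.93 (Casp11-/- NCD) and 47.1, 129 and 31.8 (Casp11-/- HFD) TPM. Hpd, an enzyme of tyrosine breakdown, was at 67.4, 58.9 and 9.50 (WT-NCD), 60.4, 30.9 and 48.3 (WT-HFD), 32.5, 89.0 and 11.4 (Casp11-/- NCD) and 57.2, 116 and 95.5 (Casp11-/- HFD) TPM. Casp11-/- NCD replicate 2 was the highest of the 11 libraries for Ass1 and Pck1, while Pck1 was lowest in another library of that group, Casp11-/- NCD replicate 3, a 49.0-fold span within 1 group. Casp11-/- NCD replicate 2 was also the highest for Cps1, which opens the urea cycle, at 108 TPM against 13.1 to 84.9 TPM elsewhere, and for Tat, tyrosine aminotransferase, at 129 TPM against 8.83 to 82.5 TPM. For Tdo2, which starts tryptophan breakdown, each WT-HFD library (34.3 to 38.8 TPM) was above each WT-NCD library (8.14 to 22.9 TPM). It was the 1 of 45 members so placed, where 1.98% of all genes were with all 12 libraries and 14.3% without WT-NCD replicate 3.

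**Figure D2:**
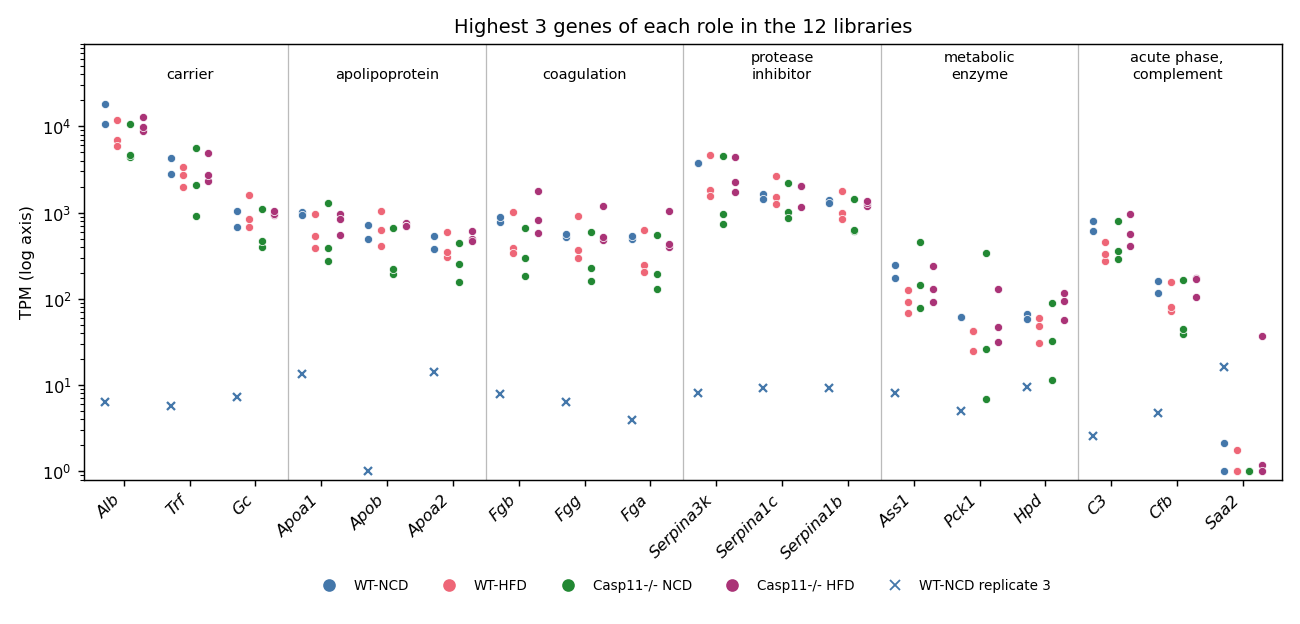
Each point is the TPM of a gene in 1 of the 12 libraries, on a log axis, for the 3 most abundant genes of each role, with colours for the 4 groups and a cross for WT-NCD replicate 3. Libraries of 1 group are spread about as widely as the groups for most of the 18 genes, Apob and Apoa2 in Casp11-/- mice are higher on HFD in each library, and the crosses lie between 1.01 and 16.1 TPM.

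The members kept their proportions to one another better than their amounts. Of the 44 genes other than Alb, 40 varied less over the 11 libraries as a ratio to Alb than as TPM. The share of all other genes that do so was not counted, so this is not shown to be particular to the members. The median SD was 0.40 for the log2 ratio to Alb and 0.76 for log2 TPM. Alb made up 25.5% to 40.7% of the summed TPM of the members. By role, carriers with Alb made up 43.8% to 58.6% of the sum, protease inhibitors 20.9% to 30.7%, coagulation genes 7.47% to 16.0%, apolipoproteins 5.96% to 8.64%, acute phase and complement genes 1.50% to 3.03% and metabolic enzymes 0.717% to 2.80%. The coagulation share was highest in Casp11-/- HFD replicate 2, and the metabolic share was highest in Casp11-/- NCD replicate 2. These points share libraries and depth, and the ratios are a description. For the same reason, the number of members of the same sign in a comparison below does not count separate observations.

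**Figure D3:**
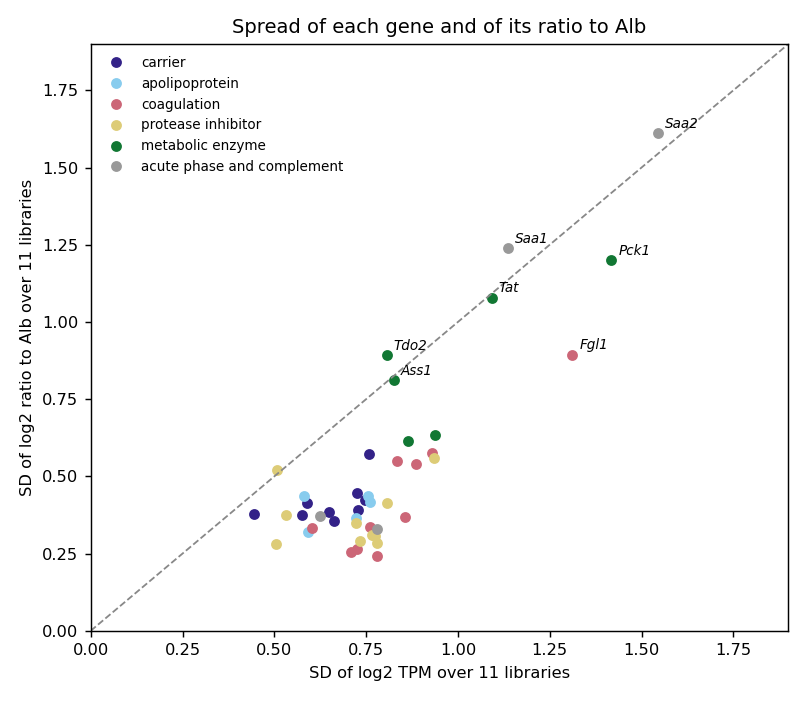
Each point is 1 of 44 genes, coloured by role, with the SD of its log2 TPM over 11 libraries on the x axis and the SD of its log2 ratio to Alb on the y axis. The 4 genes above the dashed line of equality vary more against Alb than alone, and Saa2, Saa1, Pck1, Tat, Fgl1, Tdo2 and Ass1 are named because their ratio to Alb has an SD above 0.75.

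As a share of the members' sum, Apob and Apoh were the 2 of 45 genes for which the 6 HFD libraries and the 5 NCD libraries other than WT-NCD replicate 3 did not overlap. They were singled out after their values were seen. Apob made up 1.80% to 2.78% of the sum in the HFD libraries and 1.41% to 1.60% in the NCD libraries. Apoh made up 1.15% to 1.52% and 0.786% to 1.08%. Over all genes set against the same sum, 0.585% did not overlap, and the 2 of 45 members were read against that share as a description, since the sum contains both genes.

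The diet comparison within WT mice asked whether the hepatocyte transcripts of the fraction differed with HFD. No member was called in either fit, and the direction of the set turned with WT-NCD replicate 3. Genes were compared with limma on log2(TPM + 1) and Benjamini-Hochberg adjustment over all genes tested, and a gene was called at an adjusted p under 0.05. With all 12 libraries, 0 of 45 members were called (0 with an unadjusted p under 0.05) where 0.113% of all genes were, the median member difference was 1.25 (log2, HFD minus NCD) against -0.51 over all genes, and the smallest adjusted p of a member by limma was 0.513. Without WT-NCD replicate 3, 0 of 45 were called (2 at an unadjusted p under 0.05) where 2.18% of all genes were, and the median was -0.58 against -0.27 over all genes. Alb differed by 2.80 (SE 4.37) with all libraries and by -0.83 (SE 0.84) without that library. Apob differed by 2.87 (SE 1.84) and 0.13 (SE 0.63). Coagulation genes were the role furthest below 0 without the library, with a median of -0.74 and 0 of 10 positive, and apolipoproteins lay at 0.03 with 3 of 5 positive.

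Within Casp11-/- mice the fitted differences were above 0 on HFD for nearly every member, and none passed the test. The median difference was 0.98, with 44 of 45 members positive, in the fits with and without WT-NCD replicate 3, which is no library of this comparison. In the fit of all libraries 0 of 45 were called (1 at an unadjusted p under 0.05) where 0% of all genes were. Without the library, which also sets the shared spread, 0 of 45 were called (12 at an unadjusted p under 0.05) where 1.10% of all genes were, and the smallest adjusted p by limma was 0.107, for Fgl1 with a difference of 1.84 (SE 0.58). Fgb differed by 1.50 (SE 0.61), Apoh by 1.36 (SE 0.54) and Alb by 0.78 (SE 0.75). Ass1 was the single member below 0, at -0.28 (SE 0.57).

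Rescaling to protein-coding genes, which leaves out the other genes that hold most of the TPM, raised this difference, and it also moved the median of all genes. Without WT-NCD replicate 3 and on this scale, the median member differed by 1.54 between the diets in Casp11-/- mice, against -0.19 over all protein-coding genes, with 45 of 45 positive. Of the 45, 0 were called (32 at an unadjusted p under 0.05) where 3.55% of all genes were, and the smallest adjusted p by limma was 0.0555. Coagulation genes had a median of 1.78, apolipoproteins 1.58, protease inhibitors 1.43, carriers 1.35 and metabolic enzymes 1.03. Markers of other cells moved in the same fit, with 7 of 9 sinusoidal endothelial genes higher on HFD (median 2.65), 7 of 12 macrophage genes higher (median 2.23), 5 of 8 B cell genes lower and 3 of 5 erythroid genes lower, and their part in the members' differences was not tested. The call turned on 1 library, which was the highest of its group in summed members. When Casp11-/- NCD replicate 2 was left out as well, an alternative added after the values were seen, 43 of 45 members were called where 24.7% of all genes were, all but Saa1 and Saa2 and all of them higher on HFD, with a median of 2.31. No other library left out in the same way gave a member called in this comparison.

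On this scale the diet comparison in WT mice gave 0 of 45 members called (0 at an unadjusted p under 0.05) where 0.809% of all genes were, with a median of 0.16 against 0.08 over all protein-coding genes. The sign of the WT median thus differed between the 2 scalings, -0.58 and 0.16, without WT-NCD replicate 3.

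Over both genotypes together, 0 of 45 members were called with all 12 libraries (0 at an unadjusted p under 0.05) where 0.554% of all genes were, and the median was 1.10 against -0.61 over all genes. Without WT-NCD replicate 3, 0 of 45 were called (0 at an unadjusted p under 0.05) where 18.3% of all genes were, and the median was 0.21 against -0.39. Most of the genes called there were lower on HFD, 3097 of 3289, and the members were not among them. With protein-coding genes rescaled, 0 of 45 were called (14 at an unadjusted p under 0.05) where 13.7% of all genes were, and the median was 0.87. Apoh, at 1.36 (SE 0.44), had an adjusted p of 0.0585 by limma, and Apob, at 1.34 (SE 0.47), had 0.0719. Without Casp11-/- NCD replicate 2 as well, left out after the values were seen, 40 of 45 were called where 32.5% of all genes were. All 40 were higher on HFD. Without WT-HFD replicate 3 instead, 2 of 45 were called (Apob and Apoh) where 15.0% of all genes were, and without Casp11-/- HFD replicate 3, 1 of 45 (Tdo2) where 10.7% were.

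The genotype comparison on NCD asked whether the hepatocyte signal differed between knockout and WT mice without HFD. The genotypes also differ in strain label, which cannot be told apart from the knockout on either diet. With all 12 libraries, 0 of 45 members were called (0 at an unadjusted p under 0.05) where 0% of all genes were, and the median difference, Casp11-/- minus WT, was 0.85. Without WT-NCD replicate 3, 0 of 45 were called (3 at an unadjusted p under 0.05) where 0.0557% of all genes were, and the median turned to -0.89, with 44 of 45 members negative. Members largely moved together between libraries, so these signs are not separate observations. Each Casp11-/- NCD library lay below WT-NCD replicates 1 and 2 for 4 of 45 members, namely Alb, Fgb, Fetub and Fgl1, where 2.64% of all genes did so. Pck1 and Ass1 lay nearer to 0 than most, at -0.56 (SE 0.91) and -0.27 (SE 0.64). With protein-coding genes rescaled as well, 0 of 45 were called (1 at an unadjusted p under 0.05) where 0% of all genes were, and the median was -0.75. On that scale and without Casp11-/- NCD replicate 2, left out after the values were seen, Fetub was called, with a difference of -2.01 (SE 0.34). It was the 1 of 45 members called, where 0.431% of all genes were. The library left out had the highest member sum of its group, so leaving it out lowers the Casp11-/- NCD mean.

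Between the knockout and WT libraries on HFD, no member passed the test with the spread shared by the groups. With all 12 libraries, 0 of 45 members were called (1 at an unadjusted p under 0.05) where 0% of all genes were. Without WT-NCD replicate 3, 0 of 45 were called (4 at an unadjusted p under 0.05) where 0% of all genes were. The median difference was 0.62 in both, with 43 of 45 members positive, signs that are again not separate observations. Alb differed by 0.40 (SE 0.75), Gc by 0.03 (SE 0.57), Fgb by 0.87 (SE 0.61) and Fgl1 by 1.83 (SE 0.58) without WT-NCD replicate 3. With protein-coding genes rescaled, 0 of 45 were called (1 at an unadjusted p under 0.05) where 0% of all genes were, and the median was 0.59. With the spread taken from the WT-HFD and Casp11-/- HFD libraries alone, Fgl1 was the 1 of 45 members called, where 0.0947% of all genes were.

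The interaction, the diet difference in Casp11-/- mice minus that in WT mice, again depended on WT-NCD replicate 3. With all 12 libraries, 0 of 45 members were called (1 at an unadjusted p under 0.05) where 0% of all genes were, and the median was -0.28. Without the library, 0 of 45 were called (14 at an unadjusted p under 0.05) where 0.00557% of all genes were, and the median was 1.47 with 44 of 45 positive. Here too the signs of members that share libraries are not separate observations. Fgl1 was furthest from 0, at 3.51 (SE 0.87), with an adjusted p of 0.670 by limma. With protein-coding genes rescaled, 0 of 45 were called (3 at an unadjusted p under 0.05) where 0% of all genes were, and the median was 1.30. Leaving out Casp11-/- NCD replicate 2 on that scale brought 7 of 45, namely Fetub, Fgl1, Itih1, Itih4, Orm1, Plg and Vtn, where 0.447% of all genes were called. That alternative was chosen after the values were seen, and the library left out had the highest member sum of its group. With every library other than WT-NCD replicate 3 in place, no member passed the limma test of the interaction.

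**Figure D4:**
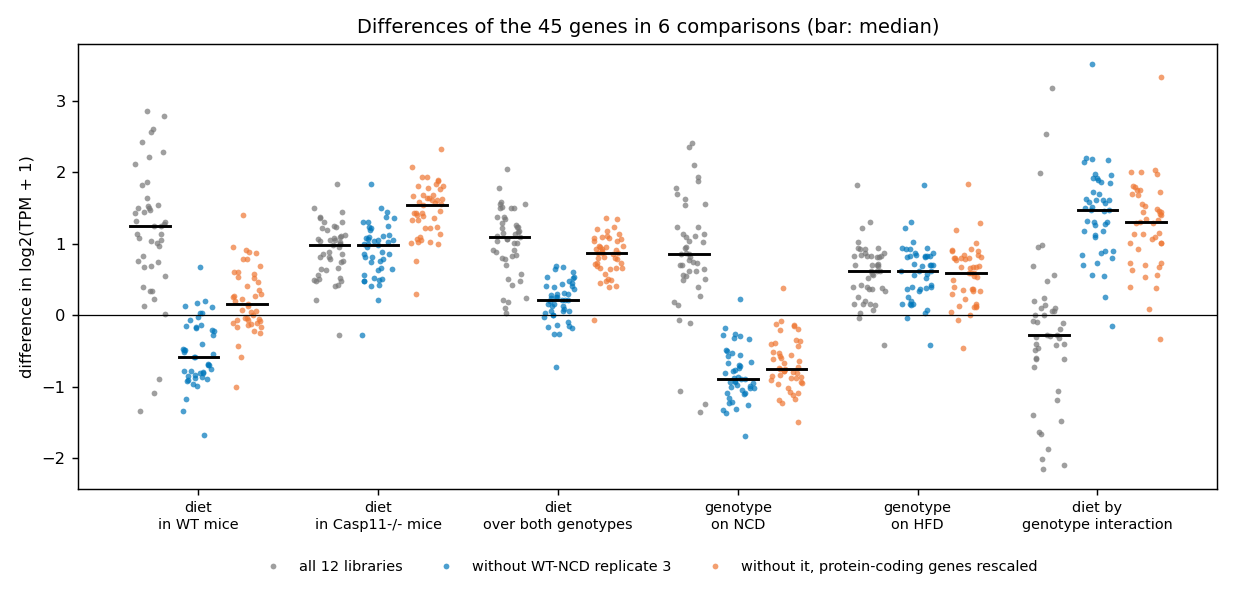
Points are the differences in log2(TPM + 1) of the 45 genes in 6 comparisons (diet: HFD minus NCD, genotype: Casp11-/- minus WT), in 3 fits, with a bar at the median. The medians for diet in WT mice, genotype on NCD and the interaction change sign with WT-NCD replicate 3, from 1.25 to -0.58, from 0.85 to -0.89 and from -0.28 to 1.47.

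Other hepatocyte genes were taken from lists also made with earlier results known. A list of 30 further secreted proteins, led by the major urinary proteins Mup3 and Mup20 and by Hamp, the iron hormone hepcidin, summed to 4521, 3650.3 and 265 (WT-NCD), 10182, 5560.1 and 3533 (WT-HFD), 1419, 6447 and 1923 (Casp11-/- NCD) and 6728, 6893 and 2571 (Casp11-/- HFD) TPM. A list of 24 further enzymes, led by Cyp2e1 and Cyp3a11, summed to 1837, 1278 and 177 (WT-NCD), 2149, 1461 and 1368 (WT-HFD), 790.2, 2466 and 461 (Casp11-/- NCD) and 2149, 2143 and 1637 (Casp11-/- HFD) TPM. Both sums were low in Casp11-/- NCD replicates 1 and 3 and higher in replicate 2 of that group. The secreted list departed from the members elsewhere. It was at 2571 TPM in Casp11-/- HFD replicate 3, where Mup20 was at 17.7 TPM and the members summed to 37162 TPM. In TPM the secreted list was also higher in WT-HFD replicate 1 than in WT-NCD replicate 1, and the members were not (41001 against 44959.9 TPM). As a share of protein-coding TPM the members were higher in WT-HFD replicate 1, at 16.4% against 12.99%. For diet over both genotypes without WT-NCD replicate 3, 3 of 29 secreted protein genes and 1 of 24 enzymes passed the limma test, all higher on HFD, where 18.3% of all genes passed in either direction. With protein-coding genes rescaled, 5 of 29 and 4 of 24 passed, where 13.7% of all genes did. The 12 transcription factors of hepatocytes, led by Hnf4a, Cebpa and Onecut1, summed to 51.0 to 201 TPM over the 11 libraries, highest in Casp11-/- NCD replicate 2, and 0 of 12 passed in any of the 6 comparisons without WT-NCD replicate 3 on either scale.

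Markers of other cell types, both immune and not, differed between the diets gene by gene. For diet over both genotypes without WT-NCD replicate 3, 8 of 12 macrophage genes and 5 of 9 sinusoidal endothelial genes were higher on HFD by limma, and 8 of 8 B cell genes, 6 of 9 T cell genes and 5 of 5 erythroid genes were lower, where 18.3% of all genes passed. With protein-coding genes rescaled these counts were 9 of 12, 8 of 9, 8 of 8, 1 of 8 and 4 of 5, where 13.7% of all genes passed. The summed levels overlapped between the diets for macrophage markers. The 12 macrophage markers, led by Lyz2, Cd68 and Csf1r, summed to 745, 3748 and 99.3 (WT-NCD), 1505, 945 and 2006 (WT-HFD), 1925, 377 and 3927 (Casp11-/- NCD) and 718, 1497 and 893 (Casp11-/- HFD) TPM. The 8 B cell markers, led by Cd79a, Cd79b and Fcmr, summed to 1593, 1438 and 50.3 (WT-NCD), 275, 148 and 344 (WT-HFD), 1789, 488 and 1884 (Casp11-/- NCD) and 196, 202 and 326 (Casp11-/- HFD) TPM. In Casp11-/- NCD mice, the libraries with few hepatocyte transcripts, replicates 1 and 3, held more of both lists than replicate 2. The erythroid list summed to 866, 6117 and 106 (WT-NCD), 765, 279.6 and 460.2 (WT-HFD), 3272, 2452 and 18029 (Casp11-/- NCD) and 543, 414 and 641 (Casp11-/- HFD) TPM, highest in Casp11-/- NCD replicate 3. Defining macrophage genes were present throughout the 11 libraries, with Adgre1 at 6.29 to 52.9 TPM and Clec4f at 4.01 to 98.3 TPM, while Timd4 and Marco fell to the floor in some. Neutrophil markers summed to 108 to 4115 TPM, T cell markers to 94.9 to 714 TPM, sinusoidal endothelial markers to 158 to 1672 TPM, stellate markers to 21.0 to 54.6 TPM, cholangiocyte markers to 11.4 to 117 TPM and platelet markers to 16.6 to 90.4 TPM. The 45 members exceeded the macrophage list in each of the 11 libraries. What part these cell types had in the differences of the members was not tested.

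**Figure D5:**
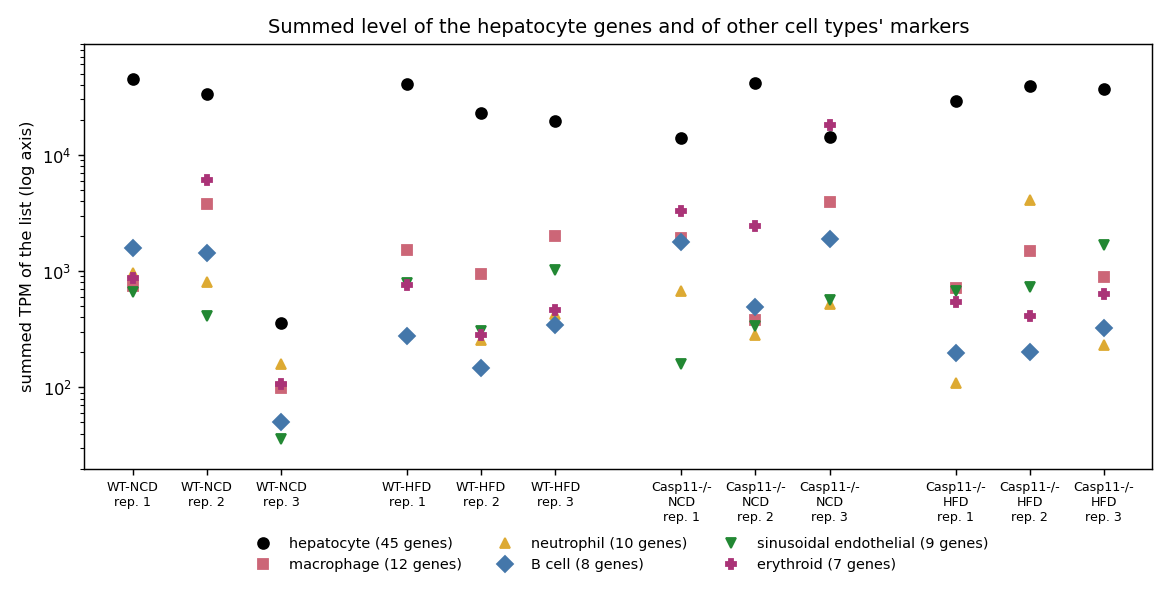
Points give the summed TPM, on a log axis, of the 45 hepatocyte genes and of marker lists of macrophages, neutrophils, B cells, sinusoidal endothelium and erythroid cells in each of the 12 libraries. The hepatocyte sum is the highest in each library except Casp11-/- NCD replicate 3, where the erythroid list reaches 18029 TPM against 14210.3 TPM.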

How the data were processed

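The authors aligned single-end reads of random-primed stranded total RNA libraries to mm10 with STAR (version not given in the sources used here) and used Qlucore for the TPM. The deposited score values are these TPM per gene on a linear scale, with low values raised to a floor of 1.01. No read counts were given, so depth and counting error are unknown. Gene types and promoters came from RefSeq GRCm38.p6, and protein-coding genes were 21702. Two-sided tests used limma 3.58.1 (R 4.3.3, with trend) on log2(TPM + 1), a pseudocount of 1, with 4 group means and a shared spread, over genes that exceeded the floor in 3 or more libraries, with Benjamini-Hochberg adjustment. Fold changes on this scale understate changes of low genes. Genes given in every library are Alb and the 3 highest of each role by mean TPM over the 11 libraries other than WT-NCD replicate 3. The rule also took in any member called with all libraries or without WT-NCD replicate 3 alone, and no member was. Members called only under other settings were not added. Other members given with values, and the macrophage genes Adgre1, Clec4f, Timd4 and Marco, were picked after their values were seen. The members and lists were chosen with earlier results of these data known. Replicates are numbered in the labels with no word on cultures or litters, and p-values measure only the spread between these samples. The alternatives were the pseudocount, the filter, the samples giving the spread, a replicate block, scaling and leaving out each library.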

Additional observations from a re-analysis of the deposited data

How the results depend on the processing

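In the fit of all 12 libraries, 0 of 45 members were called in each of the 6 comparisons, and 128 of 130 counts under the other settings named under processing were also 0. The exceptions, both Fgl1, were 1 member for genotype on HFD with the spread taken from the groups compared, and 1 for diet in Casp11-/- mice with the replicate block and without WT-NCD replicate 3, where 7.08% of all genes were called. With the replicate block and all libraries, 0 members were called in each comparison. Same-numbered libraries of different groups did not deviate together in every pair (r -0.64 to 0.47 over 18 pairs, over 0.1 in 7), and 2 of 12 libraries correlated best with their own number. With WT-NCD replicate 3 left out, r was -0.33 to 0.47 over 15 pairs (median 0.17, against -0.06 for other numbers), over 0.1 in 8, and 6 of 11 libraries correlated best with their own number. Since not every pair was over 0.1 either way, the numbers were not taken as pairs. Sharing in only some pairs would miss this bar, so it does not decide whether same-numbered libraries are related. For diet in Casp11-/- mice without WT-NCD replicate 3, 7.08% of all genes were called with the block and 1.10% without it. Leaving out each library in turn gave 0 in each comparison. Added after seeing the data, leaving out each further library with WT-NCD replicate 3 gone and protein-coding genes rescaled gave 0 to 43 members called for diet in Casp11-/- mice, 0 to 40 for diet over both genotypes, 0 to 1 for genotype on NCD (Fetub), 0 to 7 for the interaction and 0 for diet in WT mice and for genotype on HFD. The highest of each range came without Casp11-/- NCD replicate 2. Ass1, at -0.28 for diet in Casp11-/- mice, was at 0.30 with that rescaling alone and at 1.26 with that library left out as well (-0.84 to 1.26 over all left-out libraries). Under the settings named under processing, not the added ones, the 18 most abundant genes by role had 2236 values. Of these, 190 had the other sign than in the fit of all 12 libraries, 134 of them without WT-NCD replicate 3. With the highest 1% of genes removed, 11 members were left to test. The cause of these changes was not tested.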
